A study of Rattus norvegicus with 4 samples.

Results

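Immediate early transcription factors were followed in neonatal rat ventricular myocytes, the contracting cells of the newborn heart ventricle in primary culture. The genes were chosen by identifier as Fos (ENSRNOG00000008015), Jun (ENSRNOG00000026293), Junb (ENSRNOG00000042838), Atf3 (ENSRNOG00000003745), Egr1 (ENSRNOG00000019422) and Myc (ENSRNOG00000004500). All 6 were listed among the 26406 features of every library, and all 6 were among the 12226 features with a mean level of at least 1 RPKM (read counts divided by gene length and by library depth). The files give identifiers only, and the symbols come from the rule that chose the genes.

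The cells came from Sprague Dawley hearts at 2 days of age. They were transfected for 6 h with a negative control siRNA or with an siRNA against Chaer, a long noncoding RNA linked to cardiac hypertrophy, and RNA was taken after 48 h in medium with or without 50 µM phenylephrine. Phenylephrine activates α1-adrenergic receptors and drives growth of these cells, a culture model of hypertrophy. The 4 groups were thus control siRNA, Chaer siRNA, control siRNA with phenylephrine and Chaer siRNA with phenylephrine, with 1 library each. The labels name no separate cultures or litters, and the level of Chaer and markers of other heart cells were not analysed here.

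Immediate early genes are transcribed within minutes of a stimulus, without new protein synthesis, through transcription factors already present in the cell such as SRF and CREB. Their messenger RNAs are short-lived, so the first wave has usually passed within hours. Fos, Jun and Junb are subunits of AP-1, a dimer of basic leucine zipper proteins in which Fos must pair with a Jun protein. Atf3 is a stress-induced factor of the related ATF family, Egr1 is a zinc finger factor, and Myc drives genes of ribosome production and growth. In heart muscle, early induction of Fos, Jun, Egr1 and Myc is a classic sign of hypertrophic stimuli. The libraries here show the genes' levels long after the start of stimulation, and no earlier time was sampled.

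The libraries held 33944988 to 39155363 reads in listed features, and the 6 genes held between 175 and 2368 reads each. The 20 most abundant features of a library took 24.9% of these reads with control siRNA and 20.6% to 21.7% in the other libraries, which bears on scaling. No group had a replicate, so the intervals given in parentheses are 95% counting intervals of single libraries and leave out variation between cultures.

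Fos, the AP-1 subunit that cannot pair with itself, differed most across the libraries. It stood at 2.98 RPKM (2.55 to 3.45) with control siRNA, 4.81 RPKM (4.29 to 5.38) with Chaer siRNA, 10.4 RPKM (9.61 to 11.3) with control siRNA and phenylephrine, and 15.3 RPKM (14.3 to 16.3) with Chaer siRNA and phenylephrine. The 4 intervals did not overlap, and both libraries with phenylephrine lay above both without it. The phenylephrine ratio was 3.51-fold (2.96 to 4.18) with control siRNA and 3.17-fold (2.79 to 3.62) with Chaer siRNA. On log2 of (RPKM + 0.1) these ratios were 1.78 and 1.65, the 51st highest of 12226 features in each comparison. Fos was also higher with Chaer siRNA, 1.62-fold (1.34 to 1.96) without and 1.46-fold (1.32 to 1.62) with phenylephrine. It was the least abundant of the 6 in untreated cells, where 60.5% of all listed features were lower with control siRNA. With both the Chaer siRNA and phenylephrine, 81.6% of features were lower.

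Jun, a main partner of Fos in AP-1, was the most abundant of the 6 per gene length in every library. It had 47.1 RPKM (44.9 to 49.4) with control siRNA, 47.4 RPKM (45.3 to 49.6) with Chaer siRNA, 66.7 RPKM (64.1 to 69.5) with control siRNA and phenylephrine, and 53.7 RPKM (51.5 to 56.0) with Chaer siRNA and phenylephrine. The untreated libraries overlapped, and the control siRNA library with phenylephrine stood above the rest. The phenylephrine ratio was 1.42-fold (1.33 to 1.51) with control siRNA and 1.13-fold (1.07 to 1.21) with Chaer siRNA. The Chaer siRNA ratio was 1.01-fold (0.942 to 1.07) in untreated cells, and with phenylephrine the level was 1.24 times lower (1.17 to 1.32) than with control siRNA.

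Junb, an AP-1 subunit that also pairs with Fos and is often the weaker activator of the Jun proteins, had the narrowest range. It had 30.5 RPKM (28.7 to 32.3) with control siRNA, 32.6 RPKM (30.9 to 34.4) with Chaer siRNA, 34.4 RPKM (32.5 to 36.3) with control siRNA and phenylephrine, and 33.8 RPKM (32.1 to 35.6) with Chaer siRNA and phenylephrine. Only the lowest and the highest of these intervals were apart. The highest level was 1.13 times the lowest, against 5.13 times for Fos. The phenylephrine ratio was 1.13-fold (1.04 to 1.22) with control siRNA and 1.04-fold (0.961 to 1.12) with Chaer siRNA.

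**Figure D1:**
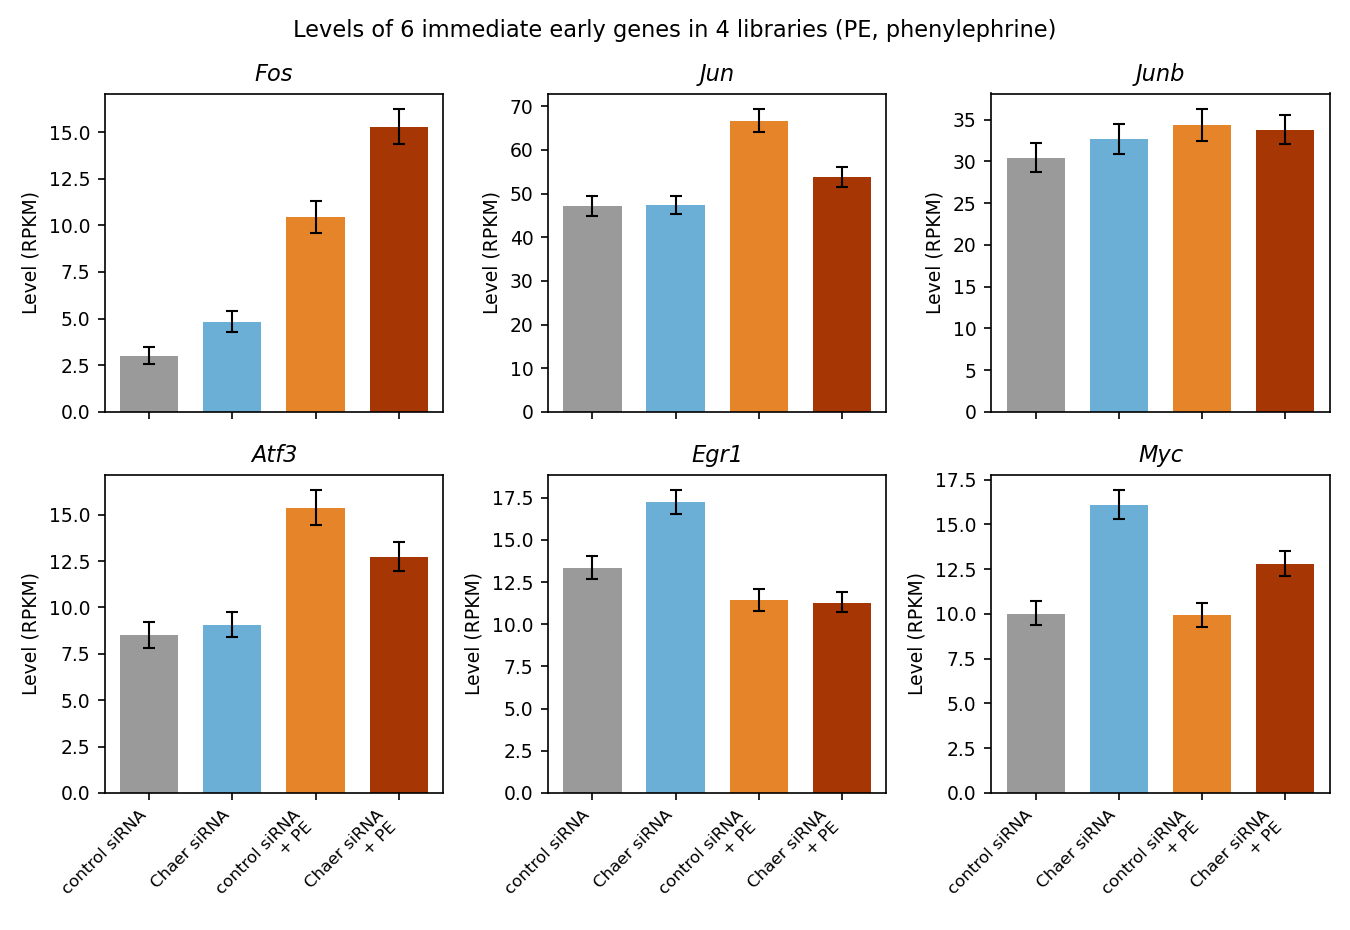
Level of each gene in RPKM (vertical axes, which start at 0 and differ between genes) in the 4 libraries, with 1 bar per library and error bars for the 95% Poisson counting interval. Fos runs from 2.98 to 15.3 RPKM with both phenylephrine libraries on top, while Junb stays between 30.5 and 34.4 RPKM.

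RefSeq promoter windows of build GRCr8 were at hand for 2 of the 6 genes, Junb and Egr1, and the 250 bases before the annotated start were searched on both strands. No window was at hand for Fos, Jun, Atf3 and Myc, so these genes were not searched. The window of Junb is shown as that of the gene with the narrowest range. It lies at chr19:40080876-40081125 on the plus strand, in the reference's build and not in that of the files, and capitals mark a CRE half-site (TGACG) and a TATA box (TATAAA).

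Junb: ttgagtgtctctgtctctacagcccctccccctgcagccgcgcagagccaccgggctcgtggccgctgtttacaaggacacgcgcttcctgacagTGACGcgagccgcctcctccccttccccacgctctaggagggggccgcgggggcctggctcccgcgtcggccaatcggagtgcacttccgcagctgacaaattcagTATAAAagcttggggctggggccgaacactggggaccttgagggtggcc

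The half-site begins 155 bases and the TATA box 49 bases before the start. A CRE half-site was found in 18.2% and a TATA box in 12.9% of the 33469 promoter windows of this length. In the Egr1 window there were 2 CArG boxes, the sequence to which SRF binds, beginning 105 and 83 bases before the start, and 1.5% of all windows held at least 1. It also held 2 CRE half-sites. Neither window held a full CRE (TGACGTCA, 1.59% of windows), an AP-1 motif (TGANTCA, 6.34%), an EGR motif (GCGTGGGCG, 0.478%) or an E-box (CACGTG, 5.59%). A full CRE also contains the half-site. These matches are letters in a window and do not show binding.

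Atf3, the stress-induced member of the ATF family, was higher with phenylephrine under both siRNAs. It was measured at 8.49 RPKM (7.82 to 9.20) with control siRNA, 9.04 RPKM (8.38 to 9.74) with Chaer siRNA, 15.4 RPKM (14.4 to 16.3) with control siRNA and phenylephrine, and 12.7 RPKM (11.9 to 13.5) with Chaer siRNA and phenylephrine. As for Jun, the untreated libraries overlapped and the control siRNA library with phenylephrine was the highest. The phenylephrine ratio was 1.81-fold (1.63 to 2.01) with control siRNA and 1.41-fold (1.27 to 1.55) with Chaer siRNA. Chaer siRNA gave 1.07-fold (0.953 to 1.19) without phenylephrine, and with it the level was 1.21 times lower (1.11 to 1.32).

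Egr1, the zinc finger factor, was lower with phenylephrine under both siRNAs. It had 13.4 RPKM (12.7 to 14.0) with control siRNA, 17.2 RPKM (16.5 to 18.0) with Chaer siRNA, 11.4 RPKM (10.8 to 12.1) with control siRNA and phenylephrine, and 11.3 RPKM (10.7 to 11.9) with Chaer siRNA and phenylephrine. The libraries with phenylephrine overlapped, and the Chaer siRNA library without it was the highest. With phenylephrine the level was 1.17 times lower (1.09 to 1.26) in the control siRNA cells and 1.53 times lower (1.43 to 1.63) in those given Chaer siRNA. Most of the 12226 features were also lower with phenylephrine, 60.5% with control siRNA and 62.1% with Chaer siRNA. A lower ratio than that of Egr1 was found for 31.5% of them with control siRNA and 8.19% with Chaer siRNA. Chaer siRNA gave 1.29-fold (1.21 to 1.38) without phenylephrine and 0.989-fold (0.916 to 1.07) with it.

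Myc, the growth-promoting factor, was higher with Chaer siRNA in both conditions. It was measured at 10.02 RPKM (9.36 to 10.7) with control siRNA, 16.1 RPKM (15.3 to 16.9) with Chaer siRNA, 9.93 RPKM (9.26 to 10.6) with control siRNA and phenylephrine, and 12.8 RPKM (12.1 to 13.5) with Chaer siRNA and phenylephrine. The control siRNA libraries overlapped, and both Chaer siRNA libraries lay above them. Chaer siRNA gave 1.61-fold (1.48 to 1.75) without phenylephrine and 1.29-fold (1.18 to 1.41) with it. Phenylephrine gave 0.991-fold (0.899 to 1.09) in the control siRNA cells. In cells given Chaer siRNA the level with phenylephrine was 1.26 times lower (1.17 to 1.36).

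**Figure D2:**
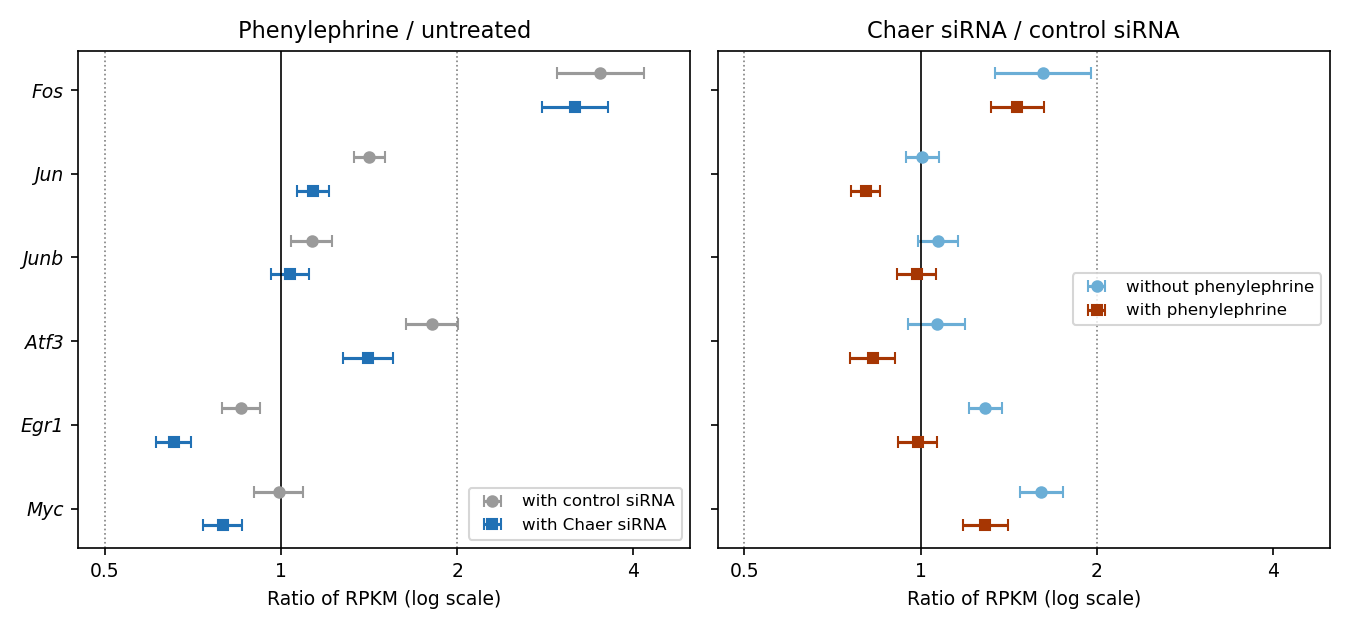
Ratio of RPKM between 2 libraries (horizontal axis, log scale) for each gene, with phenylephrine over untreated on the left and Chaer siRNA over control siRNA on the right, and 95% exact binomial counting intervals as bars. Dotted lines mark 2-fold in each direction; only the Fos phenylephrine ratios, 3.51 and 3.17, lie beyond them.

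The order of the 6 levels changed below the top. Jun came first and Junb second in every library. With control siRNA they were followed by Egr1, Myc, Atf3 and Fos, with no overlap between neighbours. The order was the same with Chaer siRNA, where Egr1 and Myc overlapped. With control siRNA and phenylephrine it was Atf3, Egr1, Fos and Myc, of which Fos overlapped both Egr1 and Myc. With Chaer siRNA and phenylephrine Fos moved to the third place, ahead of Myc and Atf3, which overlapped, and Egr1 came last. These orders compare RPKM and so depend on the gene models. Those of Jun and Junb were the shortest, at 1005 and 1035 bp, against 1589 bp for Fos, 1894 bp for Atf3, 2339 bp for Myc and 3114 bp for Egr1. Whether strand was used in counting is not stated, so reads of a gene that overlaps on the opposite strand may be included.

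The make-up of the 3 AP-1 genes shifted towards Fos. Fos made up 3.70% of the summed RPKM of Fos, Jun and Junb with control siRNA, 5.67% with Chaer siRNA, 9.36% with control siRNA and phenylephrine and 14.9% with Chaer siRNA and phenylephrine. Set against Jun in the same library, which no scaling between libraries can change, Fos was at 6.32% (5.38% to 7.38%), 10.2% (8.98% to 11.5%), 15.7% (14.3% to 17.1%) and 28.4% (26.3% to 30.7%) of the Jun level, in that order of libraries. The 4 intervals were apart. Against Junb it was at 9.78% (8.29% to 11.5%), 14.7% (13.0% to 16.7%), 30.4% (27.5% to 33.5%) and 45.2% (41.6% to 49.0%), and these intervals were apart as well. Even in the library where it was highest, Fos messenger RNA thus stayed below that of Jun and of Junb per length of gene model. The level of Jun relative to Junb was 155% (144% to 167%), 145% (135% to 156%), 194% (181% to 208%) and 159% (149% to 170%), with the control siRNA library with phenylephrine apart from the rest.

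**Figure D3:**
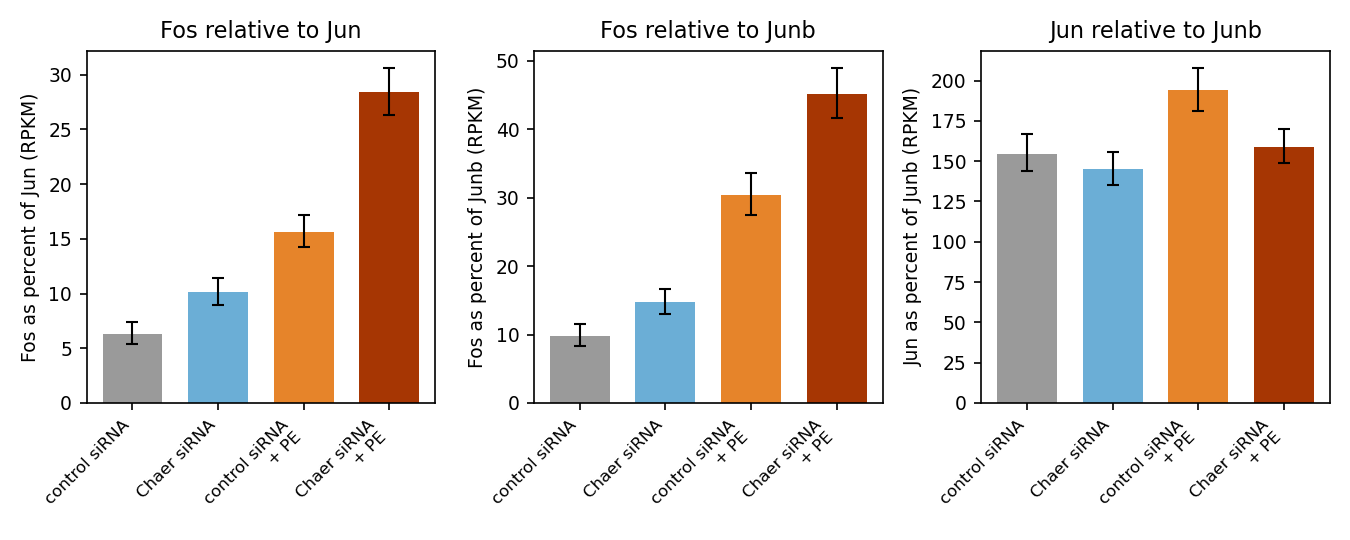
Level of Fos as a percent of Jun (left) and of Junb (middle), and of Jun as a percent of Junb (right), from RPKM within each of the 4 libraries, with 95% exact binomial counting intervals. Fos goes from 6.32% to 28.4% of Jun, and its 4 counting intervals do not overlap.

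The response to phenylephrine was first read in cells given the control siRNA. Fos and Atf3 were more than 1.5-fold higher, Jun and Junb were higher by less, Myc was close to equal and Egr1 was lower. By the size rule of at least 2-fold, 1 of the 6 genes passed, Fos, and 2.87% of all 12226 features did. With a pseudocount of 5 its log2 ratio was 0.95, just under 2-fold. At least 1.5-fold apart were 2 genes, Fos and Atf3, and 10.9% of all features. The median log2 ratio of the 6 genes was 0.34, beside -0.08 for all features, of which 60.5% were below 0. With Chaer siRNA, 1 of 6 genes again passed 2-fold, Fos, beside 3.47% of all features. At 1.5-fold there were 2, Fos higher and Egr1 lower, beside 15.0% of all features. The median log2 ratio of the 6 genes was 0.12, beside -0.11 for all features, of which 62.1% were below 0. The log2 ratio of Egr1 there was -0.61, but it no longer reached 1.5-fold with TMM scaling (-0.49), median-ratio scaling (-0.50) or a pseudocount of 1 (-0.57) or 5 (-0.45). Atf3, at 0.49, reached 1.5-fold with TMM (0.60) and median-ratio scaling (0.59). TMM scaling also moved Jun from 0.18 to 0.29, Junb from 0.05 to 0.16 and Myc from -0.33 to -0.22 in this comparison. Each of these moved values lay outside the counting interval of its ratio, which leaves out the choice of scaling.

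The siRNAs were then compared in unstimulated cells. Myc, Fos and Egr1 were higher in the Chaer siRNA library, while Jun, Junb and Atf3 had counting intervals that held equality. No gene passed 2-fold, beside 3.79% of all features. At 1.5-fold there were 2, Myc and Fos, with log2 ratios of 0.68 and 0.68, beside 15.9% of all features. Fos no longer reached 1.5-fold with a pseudocount of 1 (log2 ratio 0.55) or of 5 (0.30), and Myc no longer did with a pseudocount of 5 (0.49). All 6 log2 ratios were above 0, as were those of 52.1% of all features. That of Jun, 0.01, turned to -0.07 when the scaling ignored the 20 most abundant features.

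In stimulated cells the same contrast of siRNAs was taken. Fos and Myc were higher, Jun and Atf3 were lower, and Junb and Egr1 had intervals that held equality. No gene passed 2-fold, beside 3.54% of all features, and 0 passed 1.5-fold, beside 12.9% of all features. The median log2 ratio of the 6 genes was -0.02, beside -0.03 for all features.

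The phenylephrine ratios under the 2 siRNAs come from separate libraries and can be set side by side. For each of the 6 genes the log2 ratio was smaller, or further below 0, with Chaer siRNA. The difference, taken as Chaer siRNA minus control siRNA on log counts, was -0.38 (-0.53 to -0.24) for Egr1, -0.36 (-0.57 to -0.16) for Atf3, -0.32 (-0.45 to -0.20) for Jun and -0.32 (-0.49 to -0.14) for Myc. For Fos it was -0.14 (-0.45 to 0.16) and for Junb -0.12 (-0.28 to 0.03), intervals that held 0. No gene differed by 2-fold, beside 1.68% of all features, and 0 differed by 1.5-fold, beside 10.2%. On log2 of (RPKM + 0.1) the median difference was -0.32 for the 6 genes and -0.07 for all features, of which 58.7% were below 0. The sign was the same with each scaling, but with a pseudocount of 5 that of Fos turned to 0.09. With 1 library per group, a model that holds both effects and their difference leaves no residual degree of freedom, so this difference was not tested. It is built from the same 4 libraries as the siRNA ratios above and is not independent of them.

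**Figure D4:**
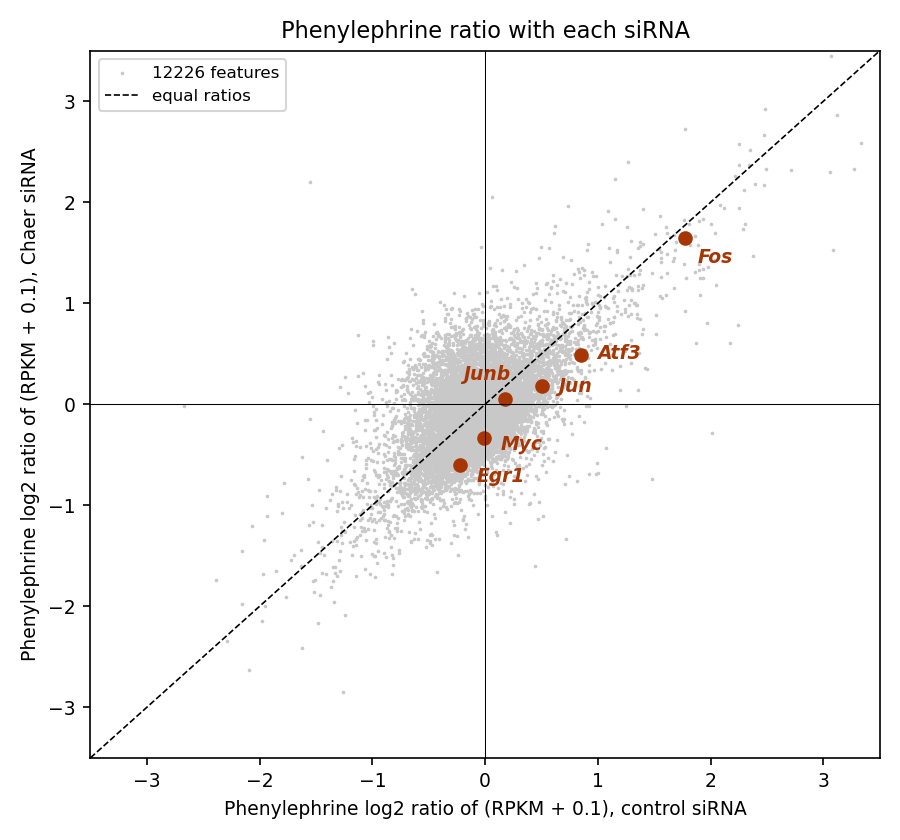
Phenylephrine log2 ratio of (RPKM + 0.1) with control siRNA (horizontal axis) and with Chaer siRNA (vertical axis) for 12226 features in grey and the 6 genes as labelled points, with the line of equal ratios dashed; 3 features lie outside the axes. All 6 points lie below that line, and Fos, at 1.78 and 1.65, is far to the upper right.

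The additive edgeR quasi-likelihood model, with 1 term per factor and all 4 libraries, called 3 of the 6 genes for phenylephrine, all higher, beside 15.4% of all features. For Chaer siRNA it called 2, both higher, beside 19.6% of all features. Fos rose with phenylephrine by 1.83 ± 0.18 (SE) on the log2 scale (edgeR adjusted p = 6.52e-23), Atf3 by 0.77 ± 0.16 (edgeR adjusted p = 2.31e-05) and Jun by 0.44 ± 0.15 (edgeR adjusted p = 0.0217). The model used TMM scaling, while the RPKM ratios above rest on read totals. With library size alone in edgeR these phenylephrine terms were 1.73 for Fos, 0.67 for Atf3 and 0.34 for Jun. Fos rose with Chaer siRNA by 0.61 ± 0.17 (edgeR adjusted p = 0.00423) and Myc by 0.52 ± 0.15 (edgeR adjusted p = 0.00623). For phenylephrine, Egr1 had a term of -0.32 ± 0.15 (edgeR adjusted p = 0.135), Junb of 0.21 ± 0.15 (edgeR adjusted p = 0.410) and Myc of -0.08 ± 0.15 (edgeR adjusted p = 0.807). For Chaer siRNA, Egr1 had a term of 0.17 ± 0.15, Junb of 0.03 ± 0.15, Atf3 of -0.10 ± 0.16 and Jun of -0.16 ± 0.15, with edgeR adjusted p from 0.494 to 0.926.

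The spread behind these p-values is the departure from additivity over all features, with 1 residual degree of freedom and a common coefficient of variation of 0.111, and not replicate error. The fit gave infinite prior degrees of freedom, so this spread was pooled over all features and treated as known. Each term also takes its effect to be the same at both levels of the other factor. For Egr1, Atf3, Jun and Myc the counting interval of the difference excluded 0, so their terms average unlike ratios. The phenylephrine log2 ratios of Jun, for example, were 0.50 with control siRNA and 0.18 with Chaer siRNA. Several calls depended on the settings. The phenylephrine calls of Fos and Atf3 were lost only where the other factor was left out of the edgeR model. Over the edgeR and DESeq2 alternatives their adjusted p ranged from 1.17e-22 to 0.135 for Fos and from 3.17e-05 to 0.215 for Atf3. The phenylephrine call of Jun was lost with DESeq2 (adjusted p = 0.150), with library size alone in edgeR (adjusted p = 0.112) and among features of at least 5 RPKM (edgeR adjusted p = 0.0546), and its adjusted p ranged from 0.0259 to 0.464 over the alternatives. Both Chaer siRNA calls were lost with DESeq2, at an adjusted p = 0.0805 for Fos (range 0.00372 to 0.815) and 0.0664 for Myc (range 0.00570 to 0.254). Egr1 was called lower with phenylephrine under library size alone (edgeR adjusted p = 0.0402, range 0.0402 to 0.634).

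Likeness of pattern was measured as the distance between centred log2 (RPKM + 0.1) profiles over the 4 libraries, ranked among the other 12225 features. No gene of the 6 came nearer to another than rank 243. The nearest of the other 5 genes to Fos was Atf3, at rank 363, and the nearest to Atf3 was Jun, at rank 243. Seen from Atf3, Fos was only at rank 10885. For Jun the nearest was Junb, at rank 1069, and for Junb it was Jun, at rank 3434. For Egr1 the nearest was Myc, at rank 3715, and for Myc it was Egr1, at rank 2133. The feature closest to Fos was ENSRNOG00000043377, at a distance of 0.17 on the log2 scale. It had 27.7 RPKM with control siRNA, 49.1 with Chaer siRNA, 89.2 with control siRNA and phenylephrine and 142 with Chaer siRNA and phenylephrine. Its levels rise in the same sequence as those of Fos, which follows from choosing the feature by its distance. The feature closest to Atf3 was ENSRNOG00000000924, at a distance of 0.02, with 9.76, 10.6, 17.9 and 14.9 RPKM in the same order of libraries. With 4 libraries, a close feature is easily found for a profile of modest range. The nearest feature lay at 0.01 to 0.04 from each of the other 5 genes, against 0.17 for Fos.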

How the data were processed

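RNA from 4 libraries was sequenced, 1 per combination of siRNA and phenylephrine. TopHat2 and build rn5 appear in the submitters' processing notes. How reads were counted, on which annotation and strand and with which filters, is not given in the sources used here. The authors deposited, per the file headers, a raw read count and an RPKM value per gene. Each comparison used the RPKM ratio, and its 95% interval was exact binomial on the counts. The interval of a level was exact Poisson, and that of a difference of effects normal on the log of (reads + 0.5). These intervals cover counting error only, and without molecular identifiers reads are not independent molecules. The size rule used log2 of (RPKM + 0.1) over the 12226 of 26406 features whose mean reached 1 RPKM.

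The counts were fitted with edgeR 4.0.16 (quasi-likelihood, TMM scaling, siRNA plus phenylephrine, p-values adjusted by Benjamini-Hochberg over those 12226 features) in R 4.3.3. The model was also tried on simulated counts, drawn at the spread it had estimated and without departure from additivity. That trial does not cover variation between cultures. DESeq2 1.42.0, other pseudocounts, scalings and filters were alternatives. The members, lists and tests were chosen with earlier results of these data known, and Fos was set against Jun within a library after seeing the values. All members are named. The reference table (GRCr8) pairs 0 identifiers of the files with a symbol, so lists of related genes and cell type markers were not used here.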

Additional observations from a re-analysis of the deposited data

How the results depend on the processing

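Over the 5 other pseudocounts and scalings, the genes past 2-fold stayed at 1 for phenylephrine with Chaer siRNA and at 0 for both Chaer siRNA comparisons and the difference of the effects. For phenylephrine with control siRNA they went from 1 to 0 with a pseudocount of 5, where the log2 ratio of Fos was 0.95. With the 1.5-fold rule they were 2 in each phenylephrine comparison, 2 for Chaer siRNA without phenylephrine and 0 in the others. Leaving the other factor out of the edgeR model gave 0 calls among the 6 genes for phenylephrine and 0 for Chaer siRNA. In that edgeR model the Fos phenylephrine term had an unadjusted p = 0.00144. The standard error of the phenylephrine term went from 0.176 to 0.320 for Fos and from 0.157 to 0.181 for Atf3. The prior degrees of freedom of that model are not given here, and what removed the calls was not tested. DESeq2 called 2 of the 6 for phenylephrine and 0 for Chaer siRNA, where the unadjusted p was 0.00853 for Fos and 0.00654 for Myc. TMM scaling moved the median of all features by 0.11 for phenylephrine with Chaer siRNA. No paired analysis was possible because the labels carry no replicate numbers and there is 1 library per group. No library can be left out, since its group would vanish. Depth limits Fos most, which had 175 reads in the control siRNA library.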
